A study of Homo sapiens with 6 samples.

Results

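The genes described here are 36 transcriptional targets of YAP and TAZ. They were chosen by name from general knowledge of the pathway, but with earlier results of these data known. The same holds for the groups by role and the other lists, so their shares and medians are descriptions and no independent support. All 36 were found among the 27914 genes of the deposited table. RNA was sequenced from MCF10A cells, an established human line of breast epithelium that is immortal but forms no tumours. The controls are named SCRin and carry a wild-type genotype (n = 3), and the other group carries the genotype α-/-;βin (n = 3). All 6 samples were given doxycycline for 3 days. The labels expand neither SCR, in, α nor β, and do not say whether a group is 1 clone or whether each replicate was its own culture. The p-values therefore weigh the groups against a spread among samples that may be technical. The series title names PI5P4K, a family of lipid kinases, and the Hippo pathway, so the comparison addresses whether the output of that pathway differed between the groups.

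In the Hippo pathway the MST kinases, with the adaptor SAV1, activate the LATS kinases. LATS, with the adaptor MOB1, phosphorylates the coactivators YAP and TAZ and keeps them out of the nucleus. When the kinases are less active, YAP and TAZ enter the nucleus, bind TEAD transcription factors at enhancers and promoters, often beside AP-1 sites, and raise transcription of genes for matricellular proteins, growth factors, receptors, cytoskeletal regulators and cell cycle genes. In epithelial cells these genes respond to cell density, shape and stiffness. Many of them also answer to other inputs, such as serum response factor, TGF-β or p53.

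The labels were checked on the genes of the kinases. PIP4K2A measured between 19.8 and 21.7 TPM in controls and between 4.09 and 4.35 TPM in α-/-;βin libraries. PIP4K2B measured between 20.8 and 23.1 TPM and between 8.20 and 11.6 TPM. Both went with the labels if α and β stand for these genes, which is an inference. PIP4K2C measured between 37.4 and 45.9 TPM in controls and between 28.6 and 39.9 TPM in α-/-;βin libraries. Its groups overlapped and it did not pass (limma adjusted p = 0.438). TPM, a measure of transcript abundance, is corrected for gene length and scaled to the same total in each library, so the number of reads is unknown. The basal breast markers were present: KRT5 measured at least 576 TPM, LAMB3 at least 776 TPM and TP63 at least 13.1 TPM in every library. Of 7 basal markers, 4 (KRT5, TP63, CDH3 and ITGA6) were above every control in each α-/-;βin library (57.1%, beside 5.64% of all tested genes). Their median log2 change was 0.54, with 6 above 0 and LAMB3 below, and 0 passed the adjusted test. The summed level of the 7 stood between 2130.2 and 3724 TPM in controls and between 2527 and 3536 TPM in α-/-;βin libraries. KRT5, LAMB3 and KRT17 make up most of that sum. Summed over its list, TPM stood between 1.96 and 6.32 for 6 fibroblast genes, between 0.637 and 2.12 for 5 endothelial genes and, for 5 leukocyte genes, between 2.64 and 6.38 in controls and between 7.05 and 9.79 in α-/-;βin libraries. Nearly all of the last sum was CD14, which was above every control in the α-/-;βin libraries, while PTPRC was listed at 0 in every library. The sum of 6 general epithelial genes stood between 691 and 806 TPM in controls and between 657 and 801 TPM in α-/-;βin libraries, and of the 5 tested EPCAM rose and 4 did not pass. EPCAM, an epithelial adhesion protein, measured 9.75, 10.9 and 9.40 TPM against 48.5, 55.4 and 44.6 TPM (log2 change 2.19, SE 0.12, limma adjusted p = 0.000847). The part of these markers in the results below was not tested. In bulk RNA, fewer cells of a kind and less RNA per cell cannot be told apart.

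TEAD factors bind the element GGAATG, which reads CATTCC on the other strand. The 250 bases before the start of each gene were taken from RefSeq (GRCh38.p14, not the build of the deposited values), which gave a window for 24 of the 36 genes. The window held GGAATG or CATTCC in 7 of the 24 (29.2%) and in 4175 of all 35116 promoter windows of that length (11.9%). The 7 were CTGF, ANKRD1, NUAK2, THBS1, FOXF2, DAB2 and DDAH1. The AP-1 element TGANTCA, which reads the same on both strands, was in 1 of the 24 (4.17%, ANKRD1) and in 6.57% of all windows. The windows of 4 genes with different outcomes below are shown. THBS1 had groups apart downward, FOXF2 upward, CTGF overlapped and ANKRD1 was too low to be tested. The windows are those of CTGF (chr6:131951373-131951622, minus strand), ANKRD1 (chr10:90921088-90921337, minus strand), THBS1 (chr15:39580829-39581078, plus strand) and FOXF2 (chr6:1389326-1389575, plus strand). Each is written from 5′ to 3′ along the gene, ending at the base before the start, with matches to either element in capitals.
CTGF: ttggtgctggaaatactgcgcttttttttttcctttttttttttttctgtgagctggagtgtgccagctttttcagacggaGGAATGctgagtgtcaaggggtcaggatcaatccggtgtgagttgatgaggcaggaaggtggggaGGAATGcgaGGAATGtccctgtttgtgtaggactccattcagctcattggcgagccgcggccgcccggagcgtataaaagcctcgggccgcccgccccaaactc
ANKRD1: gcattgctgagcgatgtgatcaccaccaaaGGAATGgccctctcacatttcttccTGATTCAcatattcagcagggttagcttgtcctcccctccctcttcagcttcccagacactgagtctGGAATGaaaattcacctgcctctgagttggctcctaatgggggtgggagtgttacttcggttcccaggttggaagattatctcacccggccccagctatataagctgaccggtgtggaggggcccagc
THBS1: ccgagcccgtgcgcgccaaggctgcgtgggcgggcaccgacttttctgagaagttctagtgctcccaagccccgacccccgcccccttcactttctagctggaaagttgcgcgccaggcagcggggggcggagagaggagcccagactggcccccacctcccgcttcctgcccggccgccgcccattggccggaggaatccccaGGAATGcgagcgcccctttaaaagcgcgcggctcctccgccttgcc
FOXF2: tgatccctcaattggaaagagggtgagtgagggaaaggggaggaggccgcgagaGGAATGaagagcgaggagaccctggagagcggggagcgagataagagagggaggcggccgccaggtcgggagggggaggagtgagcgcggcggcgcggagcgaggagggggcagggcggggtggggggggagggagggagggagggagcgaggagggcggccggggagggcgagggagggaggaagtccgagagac
The CTGF window held 3 copies of GGAATG, of which 2 lay close together, at 104 to 99 and 95 to 90 bases before the start. ANKRD1 held 2 copies and the AP-1 match TGATTCA between them, at 195 to 189 bases. THBS1 held 1 copy at 46 to 41 bases and FOXF2 1 copy at 196 to 191 bases. A match is a description of letters, not a measured binding site.

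The target genes were expressed over a wide range. In controls the highest was NT5E at a mean of 438 TPM, above 97.7% of tested genes, followed by THBS1 at 409.6 TPM, whose control libraries overlapped those of NT5E. CCND1 (192 TPM) and CYR61 (168 TPM) came next and overlapped each other across control libraries. At the other end, 3 genes lay below a mean of 1 TPM over the 6 libraries and were not tested. ANKRD1, a nuclear ankyrin repeat protein used as a YAP readout in many cell types, measured 0.275, 0.419 and 0.227 TPM in control replicates 1 to 3 and 0.164, 0.310 and 0.362 TPM in α-/-;βin replicates 1 to 3. GLI2, a Hedgehog transcription factor, was listed at 0 in all α-/-;βin libraries and in control replicate 1, with 0.0273 and 0.0158 TPM in control replicates 2 and 3. SLC2A3, the glucose transporter GLUT3, was listed at 0 in control replicate 3 and measured between 0.0676 and 0.529 TPM in the other libraries. These 3 genes were at or near 0 in both groups. Each of the other 33 genes averaged at least 1 TPM in both groups.

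**Figure D1:**
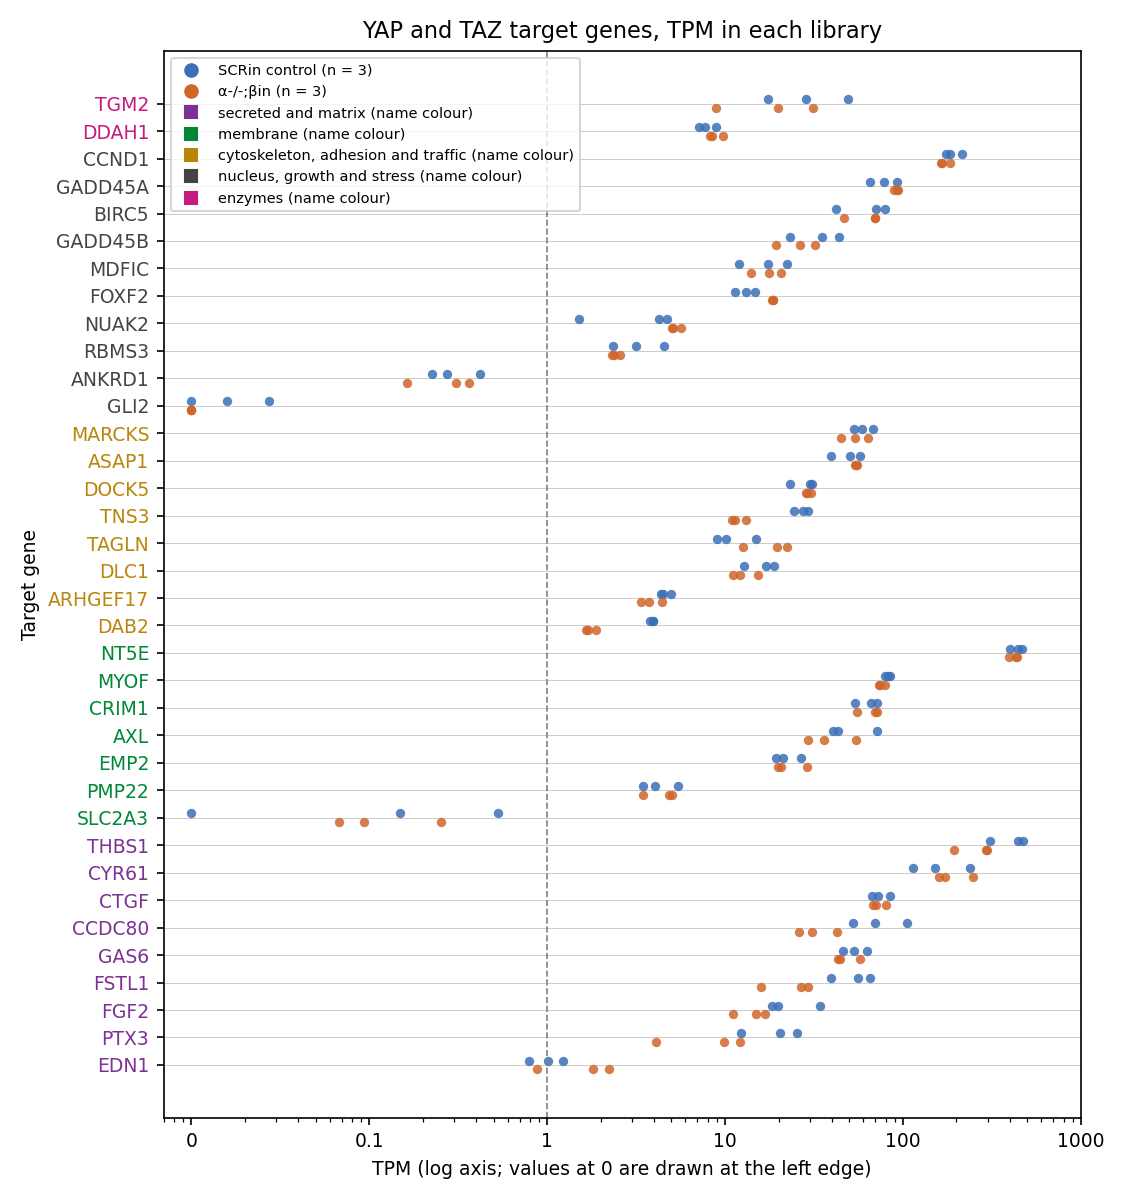
TPM of the 36 target genes (rows, grouped by role through the colour of the name) in each library on a log axis, with 3 control points (blue) and 3 α-/-;βin points (orange) per gene and a dashed line at 1 TPM. For most genes the colours overlap, while FSTL1, CCDC80, PTX3, TNS3, DAB2, THBS1 and FGF2 have all orange points to the left of all blue points. FOXF2 and NUAK2 have all orange points to the right.

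Of the 33 tested target genes, 1 fell, 0 rose and 32 did not pass (limma on log2(TPM + 1), Benjamini-Hochberg adjusted p under 0.05 over 12096 genes). Among all tested genes, 1.83% fell and 0.364% rose by the same rule, so 1 call is close to the background. That background includes lowered stretches of chromosomes 7 and 3, which held 128 and 36 of the 221 lower calls. In 7 genes every α-/-;βin library lay below every control, and in 2 every one lay above. The same held for 11.4% and 5.64% of all genes, against 21.2% and 6.06% of the target genes. At an unadjusted p under 0.05 there were 7 lower and 2 higher target genes (background 8.17% and 3.72%). The median log2 change was -0.12, beside -0.01 over all genes, and 20 of the 33 (60.6%) lay below 0, beside 53.3% of all genes. For 21 of the 33 (63.6%) the 95% interval lay within 1 log2 unit of 0 on both sides, beside 85.5% of all genes.

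**Figure D2:**
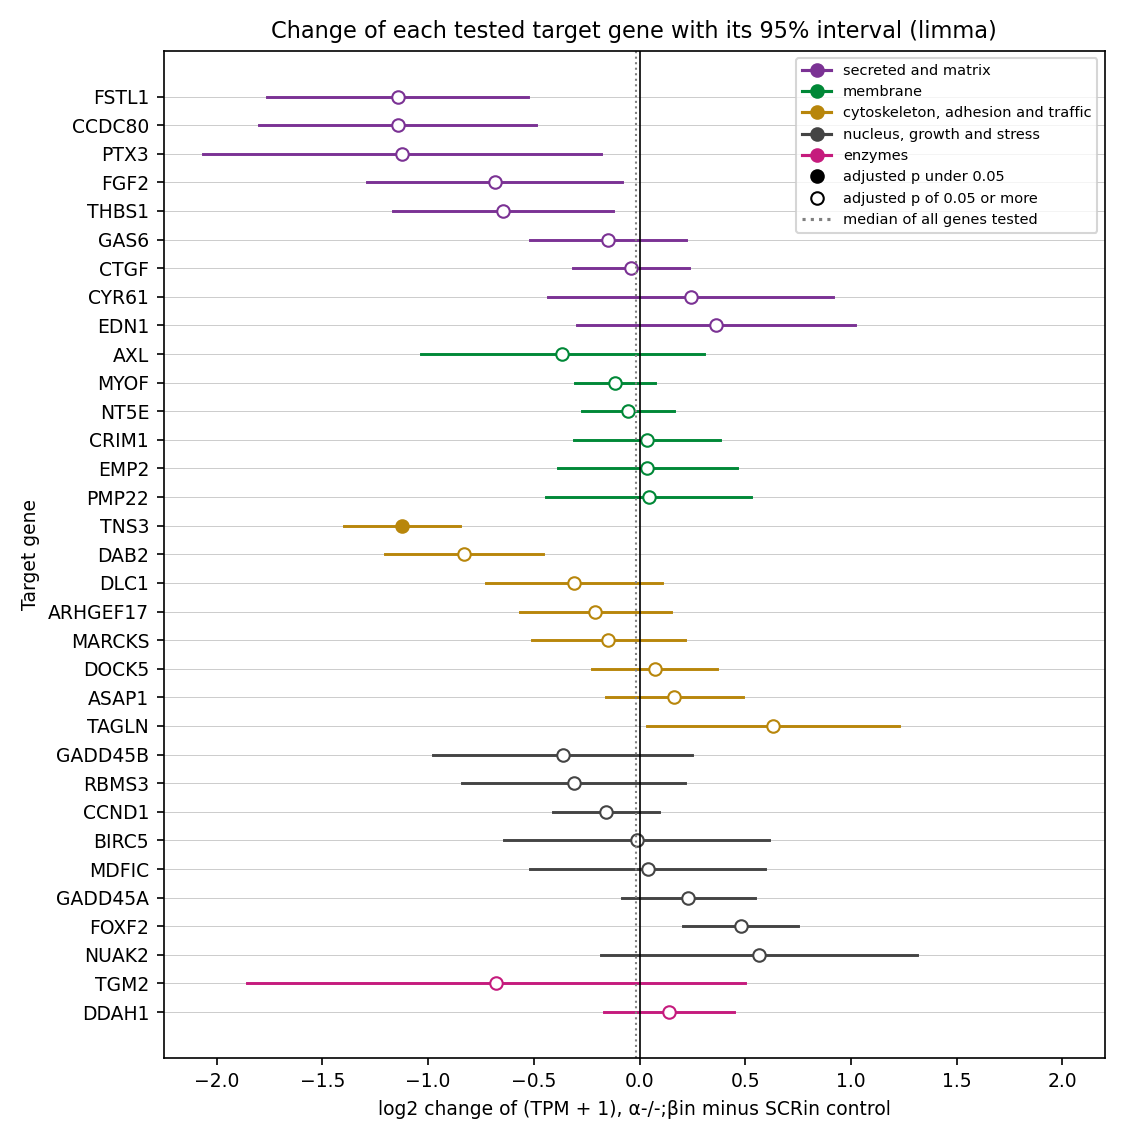
Log2 change of TPM + 1 (α-/-;βin minus SCRin control) of the 33 tested target genes with 95% limma intervals, grouped by role through colour; a filled point has an adjusted p under 0.05 and the dotted line is the median of all tested genes. TNS3 is the filled point, and 5 of the 9 secreted proteins have intervals wholly below 0.

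Among the 9 genes of secreted and matrix proteins, the readouts CTGF and CYR61 did not separate by group. In 5 others every α-/-;βin library was lower than any control (55.6%, beside 11.4% of all tested genes). This role group was formed with earlier results of these data known, so the share is a description. Of the 9, 0 passed the adjusted test and 5 had an unadjusted p under 0.05, all lower (8.17% of all tested genes were lower by that rule). The median log2 change of the 9 was -0.64, beside -0.03 for the 24 other tested target genes and -0.01 over all genes. CTGF (CCN2), a matricellular protein, measured 67.3, 72.8 and 85.2 TPM in control replicates 1 to 3 and 68.1, 70.2 and 79.9 TPM in α-/-;βin replicates 1 to 3. These sets overlap almost entirely, and the 95% interval of the log2 change ran from -0.32 to 0.23. CYR61 (CCN1), its relative, measured 114, 152 and 237 TPM against 173, 159 and 249 TPM, with replicate 3 the highest in each group. The group means were 168 and 193 TPM with SDs of 63.3 and 48.7 TPM, and the interval of the log2 change ran from -0.43 to 0.92.

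FSTL1, a secreted follistatin-like glycoprotein, measured 39.7, 56.3 and 65.0 TPM in control replicates 1 to 3 and 16.0, 26.6 and 29.3 TPM in α-/-;βin replicates 1 to 3. The highest α-/-;βin library stayed below the lowest control, and the mean stood at 44.7% of control. Its log2 change was -1.14 (SE 0.26, limma adjusted p = 0.0979), which missed the threshold. CCDC80, a secreted protein that binds matrix, measured 52.7, 69.4 and 106.1 TPM against 30.9, 26.0 and 42.5 TPM. Its mean stood at 43.6% of control, with a log2 change of -1.14 (SE 0.28, limma adjusted p = 0.120). PTX3, a long pentraxin of innate immunity, measured 12.2, 25.4 and 20.5 TPM against 4.09, 12.1 and 9.88 TPM. The groups were apart by a narrow margin, since the lowest control and the highest α-/-;βin library nearly met, and the log2 change was -1.12 (SE 0.40, limma adjusted p = 0.321). FSTL1, CCDC80 and PTX3 lie on chromosome 3, all outside the stretch of that chromosome whose genes were lower as a block.

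THBS1, or thrombospondin-1, a matricellular protein that activates latent TGF-β, measured 445, 310.0 and 473 TPM in control replicates 1 to 3 and 295, 195 and 297 TPM in α-/-;βin replicates 1 to 3. Replicate 2 was the lowest of each group, and the groups did not overlap. The mean stood at 64.0% of control, with a log2 change of -0.64 (SE 0.22, limma adjusted p = 0.299). FGF2, a growth factor for epithelial and mesenchymal cells, measured 18.4, 19.9 and 34.2 TPM against 14.95, 11.1 and 16.8 TPM. Its controls were spread mainly by replicate 3, and the log2 change was -0.69 (SE 0.26, limma adjusted p = 0.349). EDN1, the vasoconstrictor peptide endothelin-1, measured between 0.794 and 1.23 TPM in controls and between 0.881 and 2.23 TPM in α-/-;βin libraries, near the filter. GAS6, the ligand of the receptor AXL, measured between 46.1 and 62.7 TPM and between 43.3 and 57.7 TPM, and its groups overlapped.

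**Figure D3:**
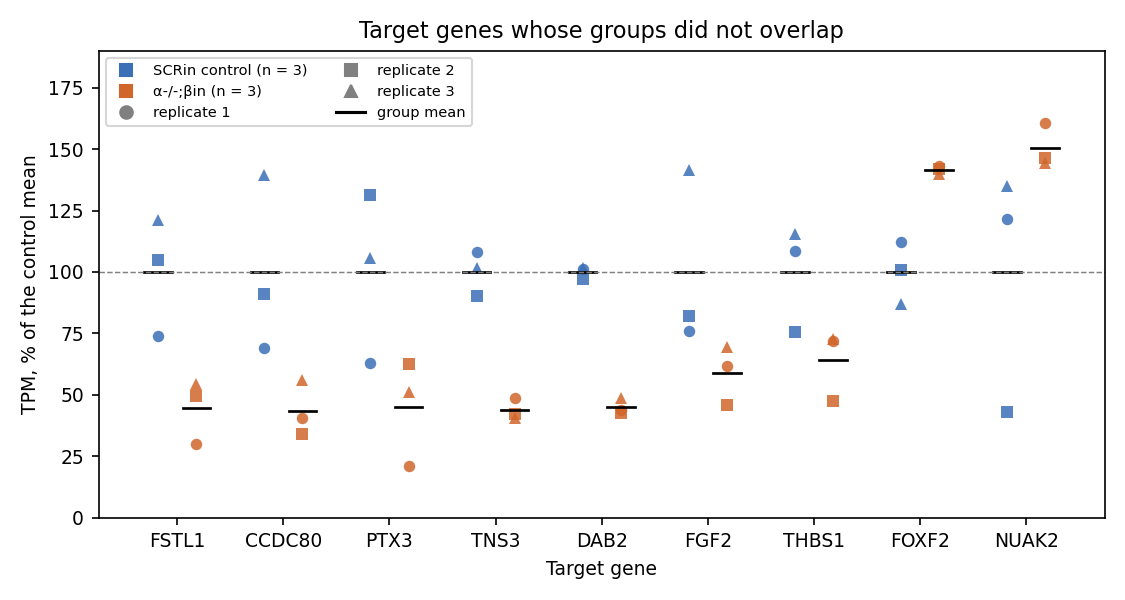
TPM in each library as a percentage of the control mean, for the 9 target genes whose groups did not overlap, with controls in blue, α-/-;βin in orange, a symbol for each replicate number and a bar at each group mean. The 7 genes on the left have α-/-;βin means between 43.6% and 64.0% of control, and FOXF2 and NUAK2 on the right have means of 142% and 151%, with 1 NUAK2 control far below the others.

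The genes of membrane proteins did not separate by group. Of 6 tested members 0 passed, 0 had an unadjusted p under 0.05, 0 had groups apart, and log2 changes ran from -0.37 to 0.04. Among all tested genes, 17.1% had groups apart. At the same unadjusted threshold 8.17% of them were lower and 3.72% higher. AXL, a receptor tyrosine kinase for GAS6, measured 40.5, 71.6 and 43.3 TPM in control replicates 1 to 3 and 29.5, 54.5 and 35.9 TPM in α-/-;βin replicates 1 to 3. Replicate 2 was the highest in each group by a wide margin, so the groups overlapped and the 95% interval of the log2 change was broad, from -1.04 to 0.31. NT5E (CD73), the ectoenzyme that makes adenosine from AMP, had means of 438 and 421 TPM with an interval from -0.27 to 0.16. MYOF, or myoferlin, a protein of membrane repair and traffic, had means of 81.9 and 75.5 TPM with an interval from -0.31 to 0.07. CRIM1, a transmembrane protein that binds BMPs, and EMP2 and PMP22, related membrane proteins that span the bilayer several times, had log2 changes between 0.03 and 0.04.

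Among 8 genes of cytoskeleton, adhesion and traffic, TNS3 fell and 7 did not pass. TNS3, or tensin-3, which links integrins to actin at focal adhesions, measured 29.1, 24.3 and 27.4 TPM in control replicates 1 to 3 and 13.1, 11.4 and 10.96 TPM in α-/-;βin replicates 1 to 3. The controls stood far above the other group, and the log2 change was -1.12 (SE 0.12, limma adjusted p = 0.00577). TNS3 lies on chromosome 7 in a stretch of 196 tested genes, itself included, of which 193 had changes below 0. The median log2 change of that stretch was -0.91, close to the change of TNS3. The stretch was already known as lowered in these data, so its share below 0 is a description and no independent support. TNS3 is the 1 target gene in such a stretch. Among the 32 tested target genes outside the stretches 0 passed, while 6 (18.8%) had groups apart downward and 2 (6.25%) upward. Over all genes these shares were 11.4% and 5.64%, with the stretches included. At an unadjusted p under 0.05 there were 6 lower and 2 higher genes among the 32 (8.17% and 3.72% of all genes, stretches included). With the stretch genes left out, 45 of 11832 genes passed.

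DAB2, an endocytic adaptor for clathrin and receptors, was low but tightly measured, with 3.93, 3.78 and 3.94 TPM in control replicates 1 to 3 and 1.70, 1.66 and 1.89 TPM in α-/-;βin replicates 1 to 3. The mean stood at 45.0% of control. The log2 change was -0.83 (SE 0.16), and the limma adjusted p of 0.0535 lay just above the threshold. It was past the threshold under 4 alternatives that do not use the replicate number, with 0.0126 as the lowest adjusted p, and above it without any 1 library. TAGLN, or transgelin, an actin-binding protein that serum response factor also drives, measured 14.9, 10.2 and 8.98 TPM against 22.4, 12.6 and 19.7 TPM. The groups overlapped through control replicate 1 and α-/-;βin replicate 2, and the log2 change was 0.63 (SE 0.25, limma adjusted p = 0.383).

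The regulators of small GTPases and MARCKS did not separate by group. DLC1 had a log2 change of -0.31, and ARHGEF17 had -0.21. DOCK5, an activator of Rac, had 0.07, and ASAP1, which switches off Arf GTPases, had 0.16. MARCKS, an actin-binding substrate of protein kinase C that also binds phosphoinositides, measured between 52.9 and 68.1 TPM in controls and between 45.0 and 63.9 TPM in α-/-;βin libraries. All 5 had overlapping groups and intervals that include 0.

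In the group of nuclear, growth and stress genes, 0 of 8 tested members passed. At an unadjusted p under 0.05, 1 was higher (3.72% of all tested genes were higher by that rule). The pair with groups apart lay above control (25.0%, beside 5.64% of all tested genes). FOXF2, a forkhead transcription factor, measured 14.7, 13.2 and 11.4 TPM in control replicates 1 to 3 and 18.7, 18.6 and 18.3 TPM in α-/-;βin replicates 1 to 3. The α-/-;βin libraries were nearly equal to each other, and the log2 change was 0.48 (SE 0.12, limma adjusted p = 0.116). NUAK2, an AMPK-related kinase, measured 4.27, 1.51 and 4.73 TPM against 5.63, 5.13 and 5.06 TPM. Control replicate 2 was far below the other controls, and the change of 0.57 had an interval from -0.18 to 1.31. GADD45A and GADD45B, stress sensors of which the first also answers to p53, had changes of 0.23 and -0.36 with overlapping groups. MDFIC, a regulator of transcription, and RBMS3, an RNA-binding protein, had changes of 0.04 and -0.31.

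CCND1 (cyclin D1), which drives entry into the cell cycle, measured 176, 184 and 216 TPM in control replicates 1 to 3 and 163, 166 and 185 TPM in α-/-;βin replicates 1 to 3. The groups overlapped, with an interval of the log2 change from -0.41 to 0.09. BIRC5 (survivin), an inhibitor of apoptosis that is made in mitosis, measured 42.1, 79.0 and 70.9 TPM against 46.6, 70.1 and 70.1 TPM. Replicate 1 was the lowest in each group, and the log2 change was -0.01 (interval -0.64 to 0.61). The 12 mitotic genes listed with it had the same low library: their summed level was 942, 1773 and 1336 TPM in control replicates 1 to 3 and 1009, 1622 and 1367 TPM in α-/-;βin replicates 1 to 3. In 11 of the 12, replicate 1 was the lowest in both groups, and 0 of the 12 passed, also at an unadjusted p under 0.05 (median log2 change -0.02). By that unadjusted rule 8.17% of all tested genes were lower and 3.72% higher.

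**Figure D4:**
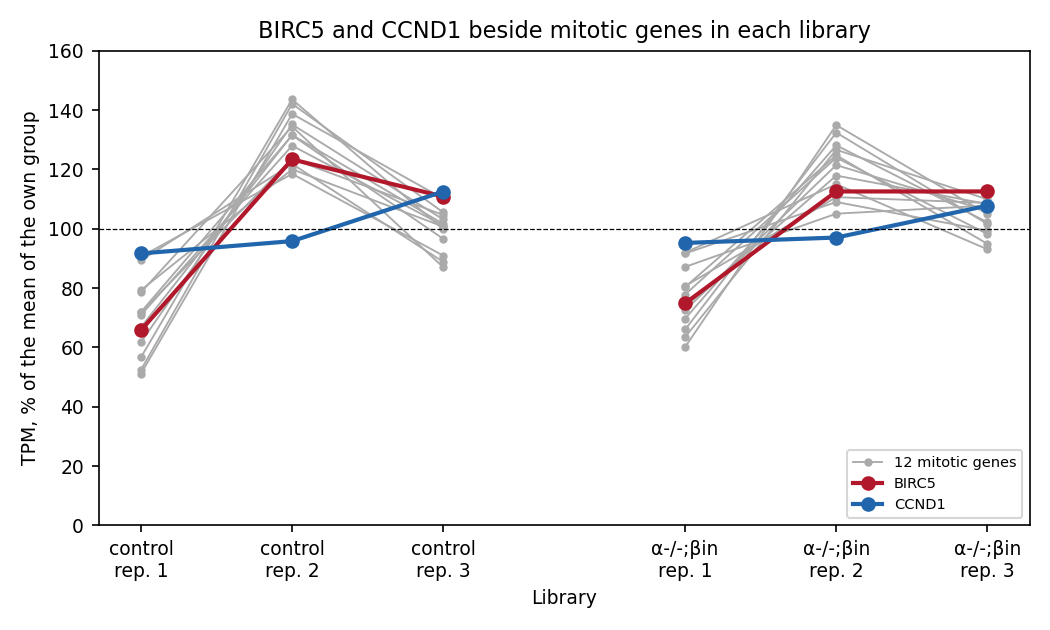
TPM of BIRC5 (red), CCND1 (blue) and 12 mitotic genes (grey) in each library, as a percentage of the mean of the library's own group; lines join the values of 1 gene and mark no order. BIRC5 goes with the mitotic genes, low in replicate 1 of each group, while CCND1 stays within a narrow band.

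The pair of enzymes among the target genes did not pass. TGM2, a transglutaminase that crosslinks matrix proteins, measured 28.5, 17.4 and 49.4 TPM in control replicates 1 to 3 and 19.9, 8.93 and 31.1 TPM in α-/-;βin replicates 1 to 3. Its spread within groups was the largest of the 33 tested target genes (residual SD 0.80 on the log2 scale), replicate 2 was the lowest and replicate 3 the highest in both, and the interval ran from -1.86 to 0.50. DDAH1, which breaks down methylated arginines, measured between 7.14 and 8.90 TPM and between 8.24 and 9.73 TPM.

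Read by promoter, the genes with GGAATG or CATTCC in the window did not go one way. Of the 6 tested genes with a match, THBS1 and DAB2 had groups apart downward, FOXF2 and NUAK2 upward, and CTGF and DDAH1 overlapped. Of the 16 tested genes whose window had no match, 5 had groups apart downward (CCDC80, FSTL1, TNS3, FGF2 and PTX3) and 0 upward. Among all tested genes 11.4% were apart downward and 5.64% upward, and TNS3 lies in the lowered stretch of chromosome 7. Genes without a window, among them CYR61, CCND1, BIRC5 and TAGLN, are not part of this split. CTGF, with 3 copies in the window printed above, had a log2 change of -0.04.

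The 15 target genes that belong to a published signature of 22 YAP and TAZ targets did not lean one way, with a median log2 change of -0.0031 over 14 tested, 7 below 0 and 7 above, and 0 passing. At an unadjusted p under 0.05, 1 was lower and 1 higher (8.17% and 3.72% of all tested genes). The groups were apart downward in 1 (7.14%) and upward in 2 (14.3%), beside 11.4% and 5.64% of all tested genes. Of the 7 other genes of that signature, F3 fell (14.3%, beside 1.83% of all tested genes) and 6 did not pass (median 0.03). The groups were apart downward in 2 of the 7 (28.6%) and upward in 0. F3 (tissue factor) measured 552, 507 and 763 TPM in control replicates 1 to 3 and 323, 260.1 and 346 TPM in α-/-;βin replicates 1 to 3. It was lower in each α-/-;βin library than in any control, with a log2 change of -0.96 (SE 0.18, limma adjusted p = 0.0490), and the call was lost when any 1 library was left out (adjusted p up to 0.134). IGFBP3, a binding protein of insulin-like growth factors in the lowered stretch of chromosome 7, measured 56.2, 15.8 and 42.9 TPM against 85.1, 9.73 and 26.4 TPM. Its libraries were widely spread in both groups, and the log2 change of -0.25 (SE 0.78, limma adjusted p = 0.954) differs in sign from the change of the mean TPM. TGFB2, a TGF-β ligand, was singled out after its values were seen: it measured 4.18, 3.11 and 2.81 TPM against 1.31, 1.91 and 1.498 TPM, apart downward, and did not pass (log2 change -0.76, SE 0.21, limma adjusted p = 0.178).

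Of 32 Hippo pathway genes listed, 30 were tested, RASSF1 fell, 0 rose and 29 did not pass, with a median log2 change of 0.01. The groups were apart downward in 4 of the 30 (13.3%) and upward in 2 (6.67%), beside 11.4% and 5.64% of all genes. RASSF1, a scaffold of the MST kinases, measured between 13.99 and 19.4 TPM in controls and between 7.34 and 8.81 TPM in α-/-;βin libraries (log2 change -0.92, SE 0.15, limma adjusted p = 0.0262), and lies in the lowered stretch of chromosome 3. Its call was lost without 5 of the 6 libraries in turn, with control replicate 2 as the exception. The most abundant genes, the kinase MAP4K4 and the LATS adaptor MOB1A, had changes of 0.16 and 0.00. WWTR1, YAP1 and MOB1B were singled out after the results were known. WWTR1, the gene of TAZ, measured 29.1, 33.2 and 30.5 TPM against 42.9, 39.9 and 34.7 TPM, apart upward, and did not pass (log2 change 0.33, SE 0.11, limma adjusted p = 0.292). YAP1 had a log2 change of 0.12 with overlapping groups. MOB1B is the other MOB1 gene. Its TPM was 26.1, 26.6 and 25.0 in the controls against 21.5, 20.3 and 20.1 in the α-/-;βin libraries, apart but with a limma adjusted p of 0.183 (log2 change -0.32).

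The lists of AP-1 genes and of contractile genes gave 1 call between them. Of 8 AP-1 genes 7 were tested and 0 passed (median log2 change -0.09). At an unadjusted p under 0.05, 1 was higher (3.72% of all tested genes were higher by that rule). The groups were apart upward in 1 of the 7 (14.3%, beside 5.64% of all tested genes) and downward in 0. The most abundant in controls, FOSL1 and JUN, had changes of -0.10 and -0.09. FOS, an immediate early gene, was likewise singled out late. Its TPM was 7.11, 14.3 and 6.37 in the controls against 24.0, 18.2 and 24.4 in the α-/-;βin libraries (log2 change 1.25, SE 0.28, limma adjusted p = 0.0970). Of 12 contractile genes driven by serum response factor 11 were tested, ACTG1 rose, 0 fell and 10 did not pass, with a median of 0.02. The groups were apart in 6 of the 11 (54.5%), beside 17.1% of all genes: 4 lay above control and 2 below, and the same numbers had an unadjusted p under 0.05 in each direction. Over all genes 3.72% were higher and 8.17% lower by that unadjusted rule. ACTG1, the gene of cytoplasmic γ-actin, measured 2064, 1946 and 2530.1 TPM against 3571, 3219 and 3989 TPM (log2 change 0.72, SE 0.13, limma adjusted p = 0.0462), and its call was lost without any 1 library (adjusted p up to 0.183). ACTB, the gene of β-actin in the lowered stretch of chromosome 7, measured 6160.0, 6213 and 8619 TPM against 4548, 4271 and 5877 TPM and did not pass (log2 change -0.51, SE 0.18, limma adjusted p = 0.317).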

How the data were processed

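The authors deposited 1 table of TPM for 27914 genes in 6 samples, and each TPM column sums to 1000000. The submitters' processing notes name hg19 as the build and DESeq2 as a tool. Aligner, quantification and filters: not given in the sources used here. Columns headed as the experiment were assigned to α-/-;βin as the remaining group, by replicate number. The number of reads is unknown, so no counting interval is given. The 12096 genes that averaged 1 TPM or more were compared as log2(TPM + 1), which understates the change of low genes, with limma 3.58.1 in R 4.3.3 (two-sided, mean-variance trend, Benjamini-Hochberg adjustment, threshold 0.05). An exact two-sided permutation test of 3 against 3 allows no p below 0.1, and every target gene whose groups did not overlap had 0.1. Alternatives changed the pseudocount, filter, scaling, moderation, gene set, replicate block and samples. Every target gene is accounted for. Of other lists, genes past the threshold and the pair with the highest control mean are named, besides those singled out after the results. The mitotic and marker lists are given by their sums, with markers named where they passed or check the cell type. The target genes and lists were chosen with earlier results of these data known. Chromosomes and gene order come from RefSeq (GRCh38.p14) and serve for names, neighbours and the lowered stretches (chromosome 7 from FAM20C to CHCHD2, chromosome 3 from SEMA3F to RPP14). The ends of the stretches were set by gene name, with earlier results of these data known.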

Additional observations from a re-analysis of the deposited data

How the results depend on the processing

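TNS3 was past the threshold under all 17 alternatives that tested it (adjusted p 0.00222 to 0.0403), and leaving out its stretch left 0 target genes called lower. DAB2 joined it, for 2 lower calls, with a pseudocount of 5, with short RNA names left out, without the mean-variance trend and with robust moderation. The number of target genes called lower was 1 whichever library was left out, and 0 were called higher under each alternative except the block. With the replicate block, 9 were called lower and 1 higher (FOXF2, adjusted p = 0.0400), and the other list genes gave 7 calls. The lower ones were TNS3, FSTL1, THBS1, PTX3, CCDC80, TGM2, AXL, GADD45B and DAB2. The labels only number the replicates. Deviations from the group means correlated at 0.25 and 0.27 for numbers 1 and 2, and at -0.24 and -0.29 when these numbers were crossed. For number 3 the value was -0.02. Deviations within a group sum to 0, so the value for number 3 depends on the others and does not decide whether samples are paired. The same replicate number was the lowest in both groups for 59.5% of all tested genes. Whether the numbers mark pairs is not known, and the main fit did not use them. Calls in the other lists, markers aside, numbered 3, and were 2 with a pseudocount of 5, 0 without a filter on low values and without the stretch genes, 1 with median ratio scaling, with quantile normalization and without the trend, and 0 to 2 with 1 library left out. Over all genes the 265 calls became 881 with the block, 45 without the stretch genes, and between 106 (without control replicate 3) and 219 with 1 library left out. Of 587 comparisons of a tested target gene with an alternative, 0 reversed a call, 13 passed in addition and 19, in 8 genes with small changes, differed in sign with no call. TPM keeps no depth, so the precision of low genes such as EDN1 and DAB2 is not known beyond the spread of the libraries.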

Other observations

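Many target genes ranked their libraries alike in both groups. For 24 of the 33 tested genes (72.7%) the replicate number with the highest value was the same in each group, beside 57.9% of all 12096 tested genes. Replicate 3 was the highest in both groups for 14 of them, among them CTGF, CYR61, THBS1, CCND1, FSTL1 and CCDC80, and replicate 2 for 5, among them AXL and PTX3. All 3 libraries stood in the same rank order in both groups for 17 of the 33 (51.5%) and for 40.0% of all tested genes. Within groups the target genes also spread more than most: their median residual SD was 0.26 on the log2 scale, beside 0.18 over all tested genes. These values are descriptions of the libraries, and the labels do not say that a number marks a shared culture or day.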
